A study of Mus musculus with 44 samples.

Results

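The 10 genes described here encode matrix metalloproteinases (MMPs) and were chosen by name from the gene table: Mmp2, Mmp3, Mmp9, Mmp10, Mmp11, Mmp13, Mmp14, Mmp19, Mmp23 and Mmp27. They are 10 of the 55486 genes in the table, and all 10 passed the filter on low counts. RNA was sequenced from fibroblasts of En1-Cre;mTmG mice, in which Cre expressed from the En1 locus switches cells of the En1 lineage and their progeny from tdTomato to GFP. Each recipient carried a fragment of donor mammary tissue beside its own, uncleared fat pad. Control donors (labelled wildtype) did not carry WapCre, WB1P donors were WapCre;Brca1 F/F;Trp53 F/F, and WB1P-Myc donors carried Col1a1 invCAG-Myc-IRES-Luc in addition. The donor alleles act in mammary epithelium through WapCre. Recipients were En1-Cre;mTmG mice, so their own fibroblasts did not carry the donor alleles, but a fragment can also bring donor stroma.

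Fibroblasts were sorted as EpCAM−/CD49f−/CD31−/CD45− cells by CD26, a surface peptidase encoded by Dpp4, and by GFP. Libraries of glands with control tissue are called normal fibroblasts (NFs) and those of tumors cancer-associated fibroblasts (CAFs). The 44 libraries came from 13 mice, namely control mice 1 to 3, WB1P mice 4 to 8 and WB1P-Myc mice 9 to 13. The control labels carry pairs of numbers, so a control mouse may be a pool of animals, and 2 of the WB1P-Myc mice, 12 and 13, are marked 8x8 in the labels. The series text speaks of end-stage tumors, but a mark of this kind may be a tumor size of the earlier, advanced stage. Counts of the libraries of a mouse and CD26 class were summed. This gave 3 CD26− and 3 CD26+ sums for NFs, 5 and 4 for WB1P CAFs, and 5 and 5 for WB1P-Myc CAFs, since mouse 4 had no CD26+ library. Some sums held 1 library only. Such CD26− sums were those of mouse 4 (from the En1 lineage) and of mice 9 and 11 (outside it). Such CD26+ sums were those of mice 6, 10 and 11 (from the En1 lineage).

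MMPs are zinc-dependent endopeptidases that cut collagens and other proteins of the extracellular matrix. Most are secreted as inactive proenzymes, become active when the propeptide is removed, and are held in check by tissue inhibitors of metalloproteinases (TIMPs) and by the membrane-anchored inhibitor Reck. In the mammary gland, stromal MMPs take part in ductal growth and in the regression of the gland after lactation, and in tumors they are known for remodelling the matrix around cancer cells. Among the genes described, Mmp13 encodes collagenase-3, Mmp2 and Mmp9 encode the gelatinases A and B, Mmp3, Mmp10 and Mmp11 encode stromelysins 1 to 3, and Mmp14 encodes a membrane-type MMP that also activates pro-Mmp2. Messenger RNA was measured here, and neither protein nor activity.

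Mmp13, Mmp3, Mmp10 and Mmp27 lie on the same strand of one cluster of MMP genes on chromosome 9 (GRCm38), with Mmp13 at positions 7272514 to 7283331, Mmp3 at 7445822 to 7455975, Mmp10 at 7502352 to 7510240 and Mmp27 at 7571396 to 7581885. Of the other members, Mmp9 is on chromosome 2 (164940780 to 164955850), Mmp23 on 4 (155650655 to 155653384), Mmp2 on 8 (92827291 to 92853420), Mmp11 and Mmp19 on 10 (75923222 to 75936496 and 128790910 to 128800824) and Mmp14 on 14 (54431612 to 54445364). The promoters of the clustered genes are shown because these neighbors differed in how they varied between fibroblast groups. The sequences are the 250 bases before the RefSeq start (GRCm38.p6, plus strand, chr9:7272264-7272513 for Mmp13, chr9:7502092-7502341 for Mmp10, chr9:7445572-7445821 for Mmp3 and chr9:7571146-7571395 for Mmp27). Capitals mark the letters TGANTCA, the core bound by AP-1, a dimer of Fos and Jun proteins.
Mmp13: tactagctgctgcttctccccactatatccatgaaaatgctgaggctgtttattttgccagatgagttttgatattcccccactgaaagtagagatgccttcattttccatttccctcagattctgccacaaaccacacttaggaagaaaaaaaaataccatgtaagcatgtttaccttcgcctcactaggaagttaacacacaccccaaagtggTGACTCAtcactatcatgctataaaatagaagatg
Mmp10: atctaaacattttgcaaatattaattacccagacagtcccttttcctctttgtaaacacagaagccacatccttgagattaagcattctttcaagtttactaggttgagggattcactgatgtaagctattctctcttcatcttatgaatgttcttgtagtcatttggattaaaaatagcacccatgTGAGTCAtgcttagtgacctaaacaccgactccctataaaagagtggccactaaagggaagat
Mmp3: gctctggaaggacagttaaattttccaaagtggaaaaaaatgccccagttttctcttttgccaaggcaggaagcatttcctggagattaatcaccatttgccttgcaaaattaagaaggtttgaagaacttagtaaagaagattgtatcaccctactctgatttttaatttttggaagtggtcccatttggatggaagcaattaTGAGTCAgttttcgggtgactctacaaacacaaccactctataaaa
Mmp27: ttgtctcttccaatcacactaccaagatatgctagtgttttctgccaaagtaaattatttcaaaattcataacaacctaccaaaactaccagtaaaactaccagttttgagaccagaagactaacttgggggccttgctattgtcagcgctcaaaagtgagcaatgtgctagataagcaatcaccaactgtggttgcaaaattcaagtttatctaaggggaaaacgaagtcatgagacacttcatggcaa
The Mmp13, Mmp10 and Mmp3 windows each held 1 AP-1 core, which began 35, 63 and 46 bases before the start. Each also held TATAAA, beginning 16, 29 and 7 bases before the start. Neither set of letters was in the window of Mmp27, nor in those of Mmp11, Mmp14 and Mmp23, the other members with a RefSeq promoter. Of 32851 promoters, 6.75% held TGANTCA on either strand within the same 250 bases and 12.4% held TATAAA, so that both are common. AGGAAG, the core of Ets factors, had 2 matches for Mmp13 and 1 each for Mmp3 and Mmp14, against 29.5% of all promoters with at least 1. Such matches describe letters and not bound sites.

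Libraries held 5790599 to 15240328 counts on genes (median 12818093), and the group medians differed little (control 13718887, WB1P 12908654, WB1P-Myc 12430145). Levels are given as CPM, the counts of a gene per 1000000 counts of its sum, as mean ± SD over mice where a mean is given. Dpp4 was higher in the CD26+ sums by 6.05 on the log2 scale in CAFs and by 6.75 in NFs, as the sort required. The summed level of 6 fibroblast markers was 20552 to 52585 CPM in every group. Fold changes are from edgeR's quasi-likelihood fit over all 16601 tested genes, given as log2 value ± SE, with Benjamini-Hochberg adjusted p over all of them and a threshold of 0.05. WB1P and WB1P-Myc have equal weight in the CAF mean. In such bulk samples, more cells that express a gene and more RNA per cell cannot be told apart.

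**Figure D1:**
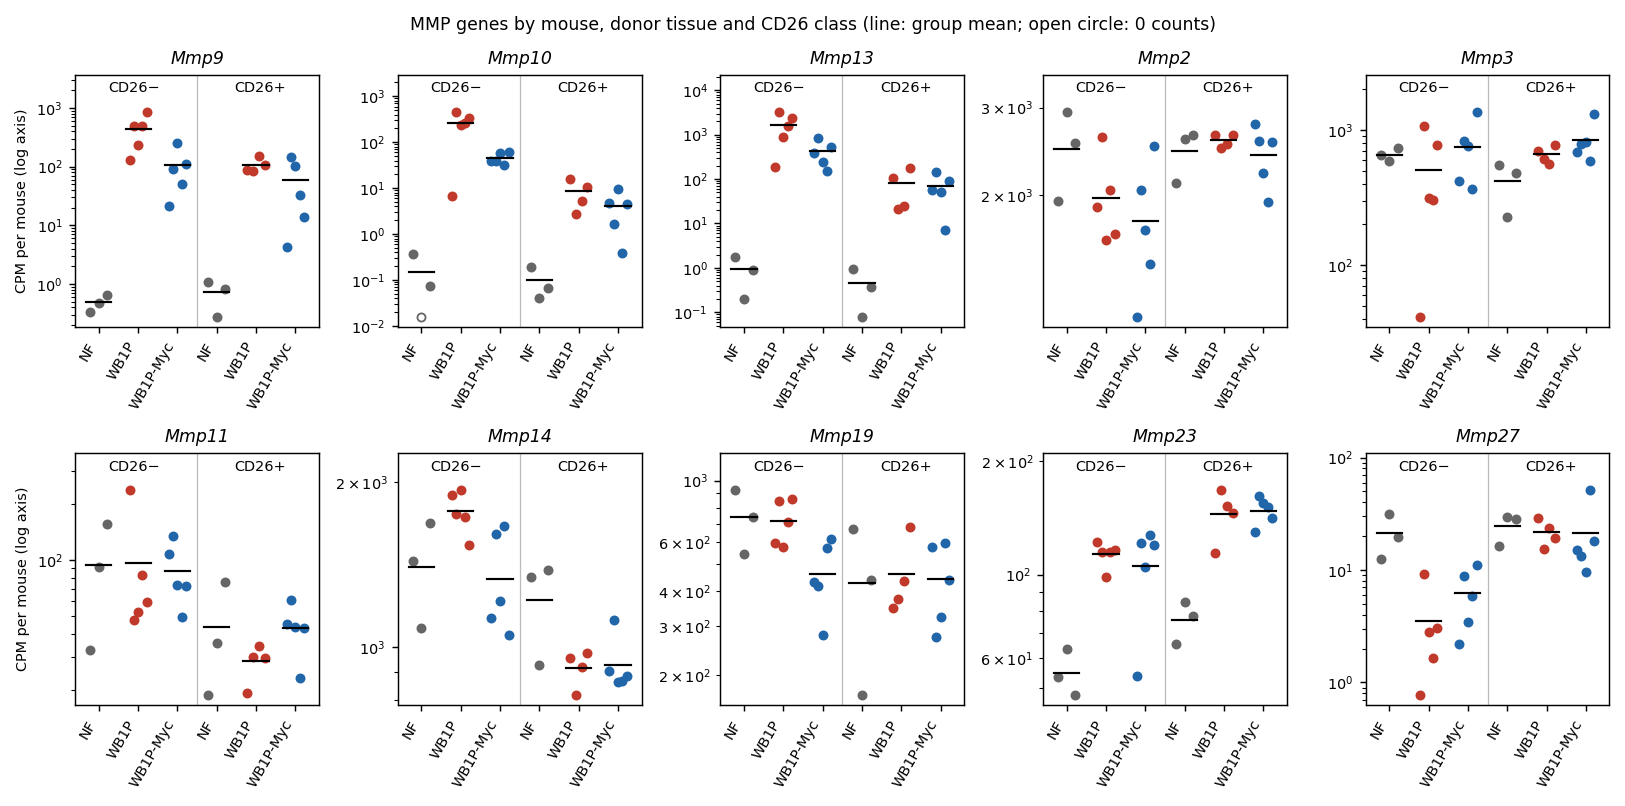
CPM of each of the 10 MMP genes on log axes that differ between genes, 1 point per mouse and CD26 class, with lines at the group means and an open circle for 0 counts. Mmp9, Mmp10 and Mmp13 in CAFs lie above every NF value in both CD26 classes, while Mmp2 and Mmp14 lie between 817 and 2941 CPM in every group.

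In CD26− fibroblasts, 3 MMP genes that were close to absent from NFs were abundant in CAFs. Mmp13, Mmp10 and Mmp9 rose by 9.83 ± 1.37, 9.50 ± 1.35 and 8.81 ± 1.22 on the log2 scale (adjusted p = 9.45e-06, 1.15e-05 and 8.34e-06). Mmp23 rose by 1.06 ± 0.19 (adjusted p = 0.000142), and Mmp27 fell by 2.06 ± 0.51 (log2 fold change −2.06, adjusted p = 0.00291). The other 5 genes, Mmp2, Mmp3, Mmp11, Mmp14 and Mmp19, did not pass the test. Thus 4 of 10 were higher and 1 lower, against 20.4% and 21.0% of all genes tested, and 41.3% in either direction. The median log2 fold change of the 10 was 0.12.

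Mmp13, the collagenase that cuts fibrillar collagen, was at 1.76, 0.198 and 0.915 CPM in the CD26− NFs of mice 1 to 3. In the CD26− CAFs of WB1P mice 4 to 8 it was at 183, 3275, 870, 1533 and 2433 CPM. WB1P-Myc mice 9 to 13 had 384, 825, 249, 153 and 526 CPM. Every CAF value was above every NF value, and mouse 4 was the lowest of the WB1P mice. The means were 1043 ± 1059 CPM in CAFs (SD, n = 10) and 0.958 ± 0.783 CPM in NFs (SD, n = 3), so that the CAF mice differed widely among themselves.

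Mmp10, a stromelysin that can also activate procollagenases, had 12 counts in all over the 3 CD26− NF sums, at 0.375, 0 and 0.0732 CPM. The WB1P CAFs of mice 4 to 8 were at 6.66, 460, 234, 266 and 344 CPM. WB1P-Myc CAFs were closer together, at 38.1, 38.7, 57.5, 31.8 and 61.1 CPM. All CAFs again lay above all NFs, and mouse 4 was again the lowest WB1P mouse. With so few counts in NFs the fold is loosely fixed, and it ran from 8.97 to 11.37 when each mouse was left out in turn.

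Mmp9, gelatinase B, was at 0.337, 0.474 and 0.659 CPM in CD26− NFs. CD26− CAFs of WB1P mice 4 to 8 had 128, 493, 237, 484 and 860 CPM, and those of WB1P-Myc mice 9 to 13 had 21.7, 92.3, 251, 50.4 and 112 CPM. The lowest CAF value, in mouse 9, was above the highest NF value. Among the WB1P mice, mouse 4 had the lowest CD26− levels of Mmp3, Mmp9, Mmp10, Mmp13 and Mmp27 and the highest of Mmp11 (237 CPM).

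The CD26+ fibroblasts gave the same 3 genes at lower levels. Mmp13 rose by 7.46 ± 1.28 (adjusted p = 0.000138), Mmp9 by 6.86 ± 1.11 (adjusted p = 7.82e-05) and Mmp10 by 6.02 ± 1.32 (adjusted p = 0.00123) in CD26+ CAFs against CD26+ NFs. Mmp23 rose by 1.08 ± 0.19 (adjusted p = 0.000186). These 4 of 10 genes were higher and 0 lower, against 20.1% and 21.1% of all genes (41.2% in either direction), and the median of the 10 was 0.58. The call for Mmp10 was lost in a limma-voom fit with mouse as a random block (adjusted p = 0.21).

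CD26+ NFs held 0.921, 0.0794 and 0.373 CPM of Mmp13. The CD26+ CAFs of WB1P mice 5 to 8 held 104, 21.2, 25.4 and 176 CPM, and those of WB1P-Myc mice 9 to 13 held 55.8, 141, 50.5, 7.03 and 89.4 CPM. The lowest of these, in mouse 12, was above all NFs. Mmp10 in CD26+ NFs was at 0.192, 0.0397 and 0.0678 CPM, or 8 counts in all. It reached 15.8, 2.76, 5.23 and 10.6 CPM in WB1P and 4.83, 1.63, 9.47, 0.386 and 4.59 CPM in WB1P-Myc CD26+ CAFs. The value of mouse 12 was the closest to the NFs. For Mmp9, CD26+ NFs were at 1.08, 0.278 and 0.814 CPM, WB1P CAFs at 86.7, 84.8, 152 and 106 CPM, and WB1P-Myc CAFs at 4.21, 147, 101, 32.7 and 13.6 CPM. Mouse 9 was the lowest CAF mouse for Mmp9 in both CD26 classes.

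**Figure D2:**
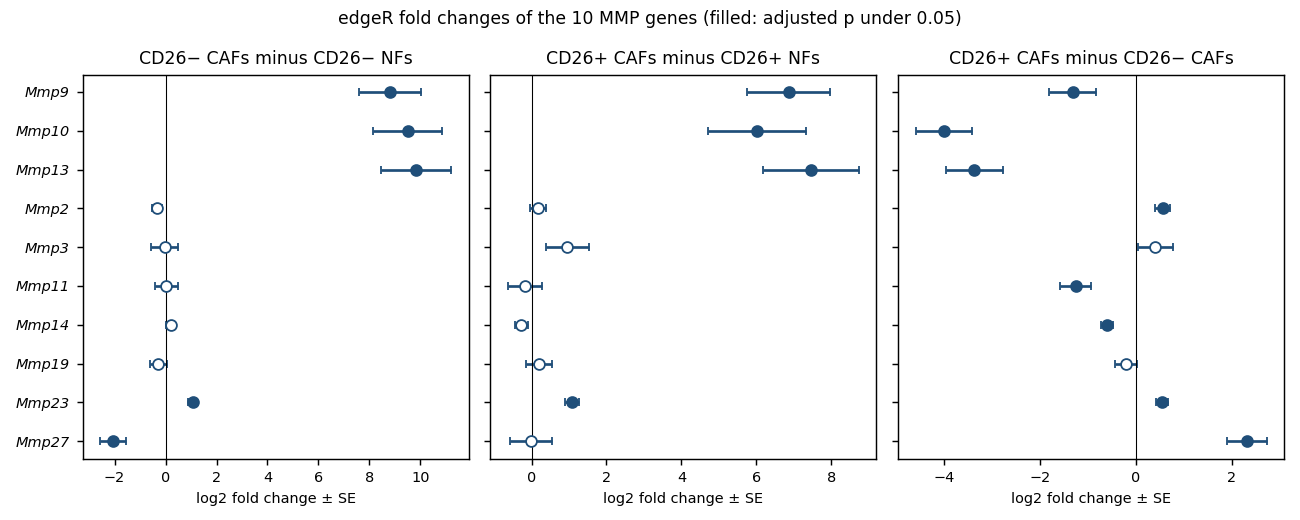
Log2 fold changes of the 10 MMP genes with their SE for CD26− CAFs against NFs, CD26+ CAFs against NFs, and CD26+ against CD26− CAFs, from the fit across all tested genes, with filled points for an adjusted p under 0.05. Mmp9, Mmp10 and Mmp13 stand far to the higher side in both CAF comparisons, and Mmp10 and Mmp13 on the lower side in CD26+ against CD26− CAFs.

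Markers of other cell types moved with some of these results. Neutrophils, which store Mmp9 in granules, and macrophages can add MMP transcripts to a sorted sample. Of 4 tested neutrophil markers 3 rose in CD26− CAFs against the NFs of that class, and their summed level (5 genes) was 0.112 to 0.711 CPM in CD26− NFs, 0.155 to 24.3 CPM in WB1P and 0.512 to 15.0 CPM in WB1P-Myc CAFs. In WB1P CD26− CAFs, Mmp9 and the neutrophil sum ranked the mice alike. They ran from 128 and 0.155 CPM in mouse 4 to 860 and 24.3 CPM in mouse 8. In WB1P-Myc CD26− CAFs only mice 10 and 12 changed places, and mouse 11 was highest in both (251 and 15.0 CPM). In CD26+ cells the neutrophil sum was 0.154 to 0.278 CPM in NFs, 0.311 to 4.71 CPM in WB1P CAFs, all above the NFs, and 0.125 to 0.437 CPM in WB1P-Myc CAFs. Of the 4 markers 0 were called between CD26+ CAFs and NFs, and Mmp9 was 84.8 to 152 CPM in those WB1P and 4.21 to 147 CPM in those WB1P-Myc CAFs. Mmp9 and the neutrophil sum did not rank the CD26+ CAF mice alike. In WB1P, mouse 7 was highest in Mmp9 (152 CPM) and mouse 8 in the neutrophil sum (4.71 CPM). In WB1P-Myc, mouse 10 was highest in Mmp9 (147 CPM) and mouse 11 in the neutrophil sum (0.437 CPM). S100a8 was the most abundant neutrophil marker in NFs and Csf3r in CAFs. The 6 macrophage markers summed to 9.59 to 18.3 CPM in CD26− NFs, 12.8 to 75.8 CPM in WB1P and 12.6 to 101 CPM in WB1P-Myc CD26− CAFs, and 3 of 6 were higher in CD26− CAFs.

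Of the pericyte markers all 5 were higher in CD26− CAFs, and their sum was 194 to 380 CPM in CD26− NFs, 1420 to 4855 CPM in WB1P and 2456 to 9951 CPM in WB1P-Myc CAFs. Rgs5 was the most abundant of them in CD26− CAFs. Mice 4 and 9 had the highest CD26− pericyte sums of their models (4855 and 9951 CPM) and the lowest CD26− Mmp9 (128 and 21.7 CPM). In the CD26+ groups the pericyte sum was 114 to 252 CPM, with 1 of 5 markers higher and 1 lower in CAFs than in NFs. The part of these 3 cell types in the MMP levels of CAFs was not tested. Muscle markers went the other way, with 5 of 5 lower in CD26− CAFs. Of 5 endothelial markers 3 were lower and 1 higher in CD26− CAFs, and 3 were lower in CD26+ CAFs. Of 6 epithelial markers, 0 were called in these comparisons. Of 6 fibroblast markers, among which Col1a1 was the most abundant, 2 were higher and 3 lower in CD26− CAFs (median log2 fold change −0.54), and 3 were higher and 1 lower in CD26+ CAFs.

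**Figure D3:**
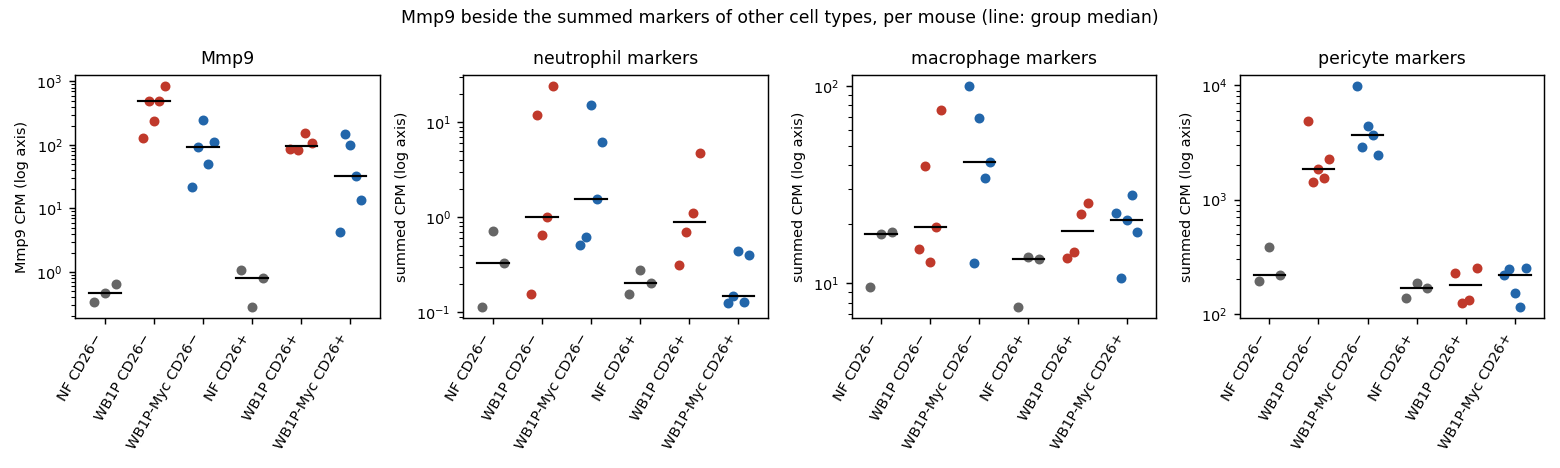
CPM of Mmp9 and summed CPM of neutrophil, macrophage and pericyte markers, 1 point per mouse and CD26 class, on log axes, with lines at the group medians. Pericyte markers are highest in the CD26− CAFs and lie between 114 and 252 CPM in the CD26+ groups, and neutrophil markers stay at or below 24.3 CPM.

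Mmp23, an MMP that is anchored in the membrane by its propeptide and released by proprotein convertases, rose about equally in both CD26 classes. In CD26− cells it was at 54.9 ± 7.84 CPM in NFs (SD, n = 3) and 109 ± 21.3 CPM in CAFs (SD, n = 10). In CD26+ cells it was at 75.9 ± 9.77 CPM (SD, n = 3) and 147 ± 16.5 CPM (SD, n = 9). CD26+ CAFs, at 114 to 168 CPM, did not overlap CD26+ NFs, at 65.4 to 84.7 CPM. In CD26− cells WB1P-Myc mouse 9 (53.7 CPM, the lowest CAF value) lay within the NF range of 47.9 to 63.4 CPM.

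Mmp27, a little studied MMP, was the only member called lower in any comparison of CAFs with NFs. CD26− NFs held 12.48, 31.60 and 19.86 CPM, whereas CD26− CAFs ran from 0.774 to 11.1 CPM with a median of 3.26 CPM. The groups did not overlap. CD26+ CAFs, at 9.54 to 51.4 CPM (median 18.1 CPM), spanned the CD26+ NFs at 16.5 to 29.5 CPM, and the log2 difference there was −0.02 ± 0.56 (adjusted p = 0.984).

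Mmp2, Mmp3, Mmp11, Mmp14 and Mmp19, which NFs already expressed, did not pass the test between CAFs and NFs in either class. Mmp2, the gelatinase that fibroblasts make in culture and in tissue, was at 2475 ± 502 CPM in CD26− NFs (SD, n = 3) and 1870 ± 457 CPM in CD26− CAFs (SD, n = 10), a log2 difference of −0.33 with a 95% interval of −0.74 to 0.07. Mmp14 was at 1398 ± 301 CPM in CD26− NFs and 1549 ± 315 CPM in CD26− CAFs (0.20 ± 0.18, adjusted p = 0.389). Mmp19, an MMP that cuts basement membrane components, was at 737 ± 190 CPM and 591 ± 185 CPM (−0.29 ± 0.33, adjusted p = 0.492). Mmp11, the stromelysin that is activated inside the cell by furin, was at 93.8 ± 61.9 CPM and 91.7 ± 58.1 CPM (0.03 ± 0.45, adjusted p = 0.96). These misses do not show equal levels, and for Mmp11 the SD over mice was large beside the mean.

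Mmp3, stromelysin-1, varied widely among CD26− CAFs. It ran from 41.5 to 1362 CPM in CD26− CAFs (median 588 CPM) against 593 to 729 CPM in CD26− NFs, and the log2 difference was −0.03 ± 0.53 (adjusted p = 0.973). In CD26+ cells every CAF, at 559 to 1323 CPM, was above every NF, at 228 to 546 CPM. This difference of 0.95 ± 0.57 was not called with all groups in the fit (adjusted p = 0.185), but was called in a fit of only the CD26+ CAFs and NFs (0.96, adjusted p = 0.0243).

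Levels of different MMPs were compared per kilobase of exon. The order in CD26− NFs was Mmp2 (734 CPM per kb), Mmp3 (365), Mmp14 (235) and Mmp19 (209 CPM per kb), and the ranges of Mmp14 and Mmp19 overlapped while Mmp2 and Mmp3 stood apart from the genes below them. Mmp13, Mmp9 and Mmp10 came last, at 0.358, 0.138 and 0.0867 CPM per kb, with overlapping ranges. In WB1P CD26− CAFs the order began with Mmp13 (621 CPM per kb) and Mmp2 (584 CPM per kb), whose ranges overlapped, and Mmp27 was last at 1.59 CPM per kb. In WB1P-Myc CD26− CAFs Mmp2, Mmp3, Mmp14 and Mmp13 (525, 414, 223 and 160 CPM per kb) overlapped each with the next. CD26+ CAFs kept Mmp2 first in both models, at 765 CPM per kb in WB1P and 716 CPM per kb in WB1P-Myc. Its range overlapped that of Mmp3 in WB1P-Myc (467 CPM per kb) but not in WB1P (367 CPM per kb).

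The 10 genes together summed to 1610 ± 128 CPM per kb in CD26− NFs (SD, n = 3), 2345 ± 910 CPM per kb in WB1P CD26− CAFs (SD, n = 5) and 1589 ± 456 CPM per kb in WB1P-Myc CD26− CAFs (SD, n = 5). CD26+ sums were 1344 ± 163, 1564 ± 137 and 1596 ± 210 CPM per kb for NFs, WB1P and WB1P-Myc. The make-up of this sum is given as a description. Mmp13 made up 0.0229% of the per-length MMP signal in CD26− NFs on average, 23.1% in WB1P CD26− CAFs (5.19% to 33.9% over mice) and 9.77% in WB1P-Myc CD26− CAFs (4.60% to 16.1%). Mmp2 made up 45.5% in CD26− NFs, 27.3% in WB1P and 32.9% in WB1P-Myc CD26− CAFs. In CD26+ CAFs, Mmp13 was at 1.86% in WB1P and 1.54% in WB1P-Myc, and Mmp2 at 49.1% and 44.9%.

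**Figure D4:**
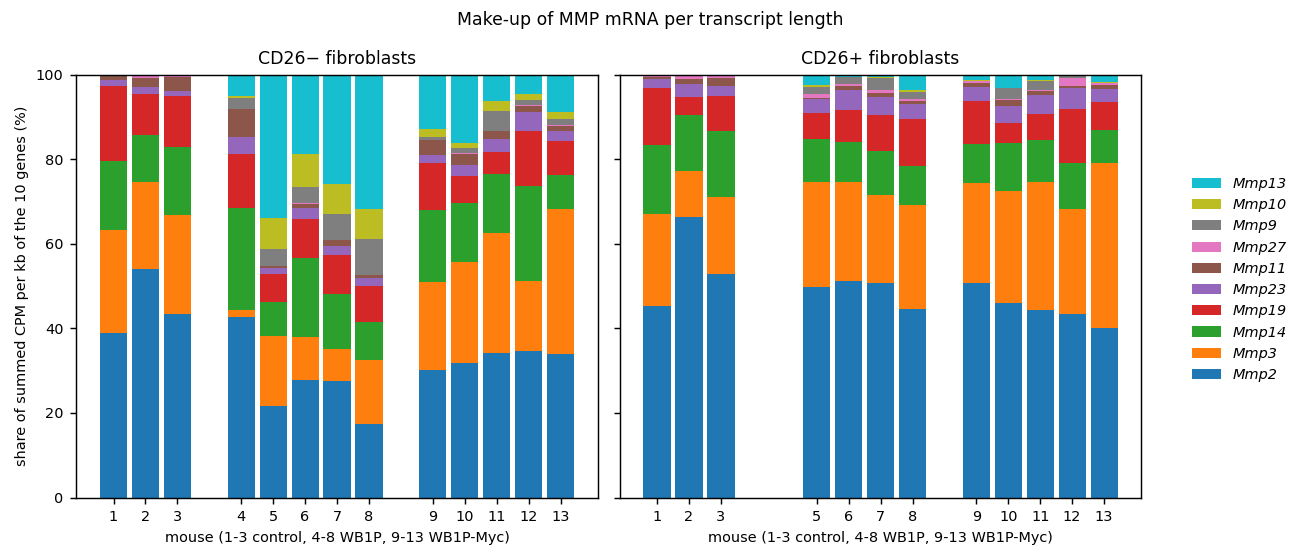
Stacked bars of the share (percent) that each of the 10 genes takes of their summed CPM per kilobase, 1 bar per mouse, with CD26− fibroblasts on the left and CD26+ on the right. Mmp13 takes 5.19% to 33.9% in WB1P and 4.60% to 16.1% in WB1P-Myc CD26− CAFs, and 1.86% and 1.54% on average in the CD26+ CAFs of these models.

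CD26+ and CD26− CAFs differed at 8 of the 10 genes. Higher in CD26− CAFs were Mmp10, Mmp13, Mmp9, Mmp11 and Mmp14, and higher in CD26+ CAFs were Mmp27, Mmp2 and Mmp23. Against CD26− CAFs, Mmp10 fell by 4.00 ± 0.58 (adjusted p = 8.87e-06) and Mmp13 fell by 3.36 ± 0.60 (adjusted p = 0.000105) in CD26+ CAFs, while Mmp27 rose by 2.32 ± 0.41 (adjusted p = 9.35e-05). Of all genes tested 19.1% were higher and 19.9% lower in CD26+ CAFs, 39.0% in either direction. With an added limit of an absolute log2 fold change over 2, the 3 genes Mmp10, Mmp13 and Mmp27 were left, against 7.61% of all genes.

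Within single mice the direction was clear for most of these genes, although over mice the ranges of the 2 CAF classes overlapped for every one of the 10. The share of all genes with such an overlap was not computed. For Mmp10 the overlap came from mouse 4 alone (6.66 CPM), which had no CD26+ library. Its other CD26− CAF sums were at 31.8 to 460 CPM, against 0.386 to 15.8 CPM in CD26+ CAFs. Mmp10 and Mmp13 were lower in the CD26+ sum in 9 of 9 CAF mice, with median CD26+ to CD26− ratios of 0.0344 (0.0118 to 0.165) and 0.0724 (0.0165 to 0.203). Mmp11 and Mmp14 were lower in 9 of 9 mice too, with median ratios of 0.470 and 0.636. Mmp9 was lower in 8 of 9, with a median ratio of 0.315. Mmp27 and Mmp2 were higher in the CD26+ sum in 9 of 9 mice, with median ratios of 5.45 (1.5 to 14.2) and 1.30, and Mmp23 in 8 of 9 (median ratio 1.32). The call for Mmp9 (−1.31 ± 0.49, adjusted p = 0.0393) was close to the threshold. It was lost without the 8x8 mice (−1.16, adjusted p = 0.117) and when any one of control mouse 3, WB1P mice 5, 6, 7 and 8 or WB1P-Myc mice 11, 12 and 13 was left out (adjusted p from 0.0518 to 0.108). In WB1P alone it was −1.92 (adjusted p = 0.0579) and in WB1P-Myc alone −0.69 (adjusted p = 0.528). These fits did not pair the 2 CD26 classes of a mouse. With mouse as a fixed block in edgeR, the Mmp9 difference was −1.59 ± 0.30 and was called (adjusted p = 0.000665).

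The smaller differences were −1.25 ± 0.32 for Mmp11 (adjusted p = 0.00356), −0.60 ± 0.13 for Mmp14 (adjusted p = 0.000666), 0.56 ± 0.15 for Mmp2 (adjusted p = 0.0044) and 0.55 ± 0.12 for Mmp23 (adjusted p = 0.00116). Mmp3 and Mmp19 did not pass (0.41 ± 0.37 and −0.21 ± 0.23), and Mmp3 was higher in the CD26+ sum in 5 of 9 mice. Mmp14 is the membrane-type enzyme that activates pro-Mmp2, and the pair went opposite ways between the CAF classes. Tested within each tumor model, Mmp10, Mmp13 and Mmp27 passed in both. Mmp11 (−1.65, adjusted p = 0.0137) and Mmp14 (−0.83, adjusted p = 0.00212) passed in WB1P alone, and in WB1P-Myc alone they had −0.86 and −0.37 (adjusted p = 0.178 and 0.146). Mmp2 (0.61, adjusted p = 0.0337) and Mmp23 (0.64, adjusted p = 0.00903) passed in WB1P-Myc alone, and in WB1P alone they had 0.50 and 0.46 (adjusted p = 0.0899 and 0.0638). The test of a difference between the models called 0 of the 10, against 0% of all genes tested.

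Other cells in the sorts moved with this comparison as well. Of the tested markers, 5 of 5 for pericytes, 4 of 4 for neutrophils and 3 of 6 for macrophages were lower in CD26+ than in CD26− CAFs, and their part in the lower Mmp9, Mmp10, Mmp11, Mmp13 and Mmp14 was not tested. Of 5 muscle markers 3 were lower in CD26+ CAFs, and of 5 endothelial markers 2 were higher and 2 lower. The endothelial sum in WB1P was 69.3 to 167 CPM in CD26+ and 18.4 to 22.8 CPM in CD26− CAFs. In WB1P-Myc it was 104 to 173 CPM in CD26+ and 16.8 to 84.3 CPM in CD26− CAFs. The part of these cells was not tested either. Of 6 fibroblast markers 4 were higher in CD26+ CAFs.

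In NFs the CD26 classes differed at 0 of the 10 genes in edgeR's test, against 4.17% of all genes, and DESeq2 called 0. At an unadjusted p under 0.05 there was 1 of the 10, against 2349 of all 16601 genes tested. Log2 differences of CD26+ against CD26− NFs ran from −1.04 (Mmp11, adjusted p = 0.439) to 0.64. Mmp11 was lower in the CD26+ sum in 3 of 3 control mice, with a median ratio of 0.488, and with mouse as a block it was called where the block was fixed (−1.01 ± 0.15, adjusted p = 0.000656), whereas limma-voom with a random block called 0 of the 10. Mmp23 was higher in all 3, with no overlap of the 2 classes (0.53 ± 0.22, adjusted p = 0.238), and Mmp13, Mmp19, Mmp3 and Mmp14 were lower in all 3 (median ratios 0.408, 0.594, 0.663 and 0.857, none of them called). With the fixed block Mmp19 had −0.89 ± 0.28 (adjusted p = 0.0585).

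Whether the CD26 difference itself differed between CAFs and NFs was tested as an interaction. It called 0 of the 10 genes by edgeR and by DESeq2, against 2.11% of all genes in edgeR's test. At an unadjusted p under 0.05 there was 1 of the 10, against 2182 of all 16601 genes tested. Mmp27 was the closest (2.04 ± 0.81, adjusted p = 0.233), followed by Mmp14 (−0.47 ± 0.26, adjusted p = 0.463) and Mmp2 (0.50 ± 0.30, adjusted p = 0.523). Mmp13 had −2.37 ± 1.43 (adjusted p = 0.536) and Mmp10 −3.48 ± 2.52. With mouse as a block, Mmp27 (1.93 ± 0.53) and Mmp13 (−2.79 ± 0.77) were called, both at an adjusted p of 0.0493, and with a random block of limma-voom Mmp27 alone (adjusted p = 0.0088).

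WB1P-Myc and WB1P CAFs were compared within each CD26 class. In CD26− CAFs 0 of the 10 genes were called by edgeR, against 0.512% of all genes. At an unadjusted p under 0.05 there were 5 of the 10, against 2405 of all 16601 genes tested. DESeq2 called 3 of the 10, and its share over all genes is not given here. The log2 differences of WB1P-Myc against WB1P were −2.71 ± 0.71 for Mmp10 (adjusted p = 0.0828), −2.22 ± 0.69 for Mmp9 (adjusted p = 0.142), −2.12 ± 0.76 for Mmp13 (adjusted p = 0.205), −0.54 ± 0.17 for Mmp14 (adjusted p = 0.147) and −0.77 ± 0.32 for Mmp19 (adjusted p = 0.272). The Mmp10 result depended on mouse 4. This mouse had only an En1+ library and was at 6.66 CPM, and the other 4 WB1P mice were at 234 to 460 CPM against 31.8 to 61.1 CPM in WB1P-Myc. Without mouse 4 the Mmp10 difference was −3.02 and passed the test (adjusted p = 0.0326). Without the 8x8 mice it was −2.76 (adjusted p = 0.183), and 0 of the 10 genes were called. In CD26+ CAFs 0 of the 10 were called by edgeR and by DESeq2 and 0 had an unadjusted p under 0.05, and of all genes 646 had such a p and 0% were called.

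The En1 lineage was compared in single libraries within each CD26 class of CAFs. Of the 10 genes 0 were called in either class by edgeR or DESeq2, against 0% of 15584 genes in CD26− and 0.0193% in CD26+ CAFs. At an unadjusted p under 0.05 there was 1 of the 10 in CD26− and 0 in CD26+ CAFs, against 641 and 631 of all 15584 genes. In CD26− CAFs, Mmp10, Mmp13 and Mmp14 were higher in the En1+ than in the double− library in 7 of 7 mice with both, but only slightly, with median ratios of 1.32, 1.23 and 1.13. In CD26+ CAFs, Mmp27 was higher in the double+ than in the CD26+ library in 6 of 6 mice (median ratio 1.24), and Mmp13 in 1 of 6. With mouse as a block the difference for Mmp10 in CD26− CAFs was 0.69 (adjusted p = 0.287).

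Along the chromosome 9 cluster, neighboring genes differed in direction. From the start of Mmp13 the genes follow in the order Mmp12 (71.9 kb), Mmp1b (95.7 kb), Mmp3 (173 kb), Mmp1a (192 kb), Mmp10 (230 kb), Mmp8 (286 kb), Mmp27 (299 kb), Mmp20 (356 kb) and Mmp7 (420 kb). In CD26− CAFs against NFs, Mmp13 and Mmp10 rose, Mmp3 between them had −0.03, and Mmp27 fell. Mmp1b, a rodent copy of interstitial collagenase, was called higher in CD26− CAFs (4.24 ± 1.07, adjusted p = 0.00334), on 97 counts over all 44 libraries. Mmp12, the macrophage elastase, had 1.40 ± 1.19 (adjusted p = 0.36) on 4367 counts. Mmp8, the neutrophil collagenase, was called higher in CD26+ CAFs (2.48 ± 0.91, adjusted p = 0.0337) on 597 counts. Mmp1a, Mmp7 and Mmp20 had 24, 8 and 0 counts in the 44 libraries and were not tested.

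**Figure D5:**
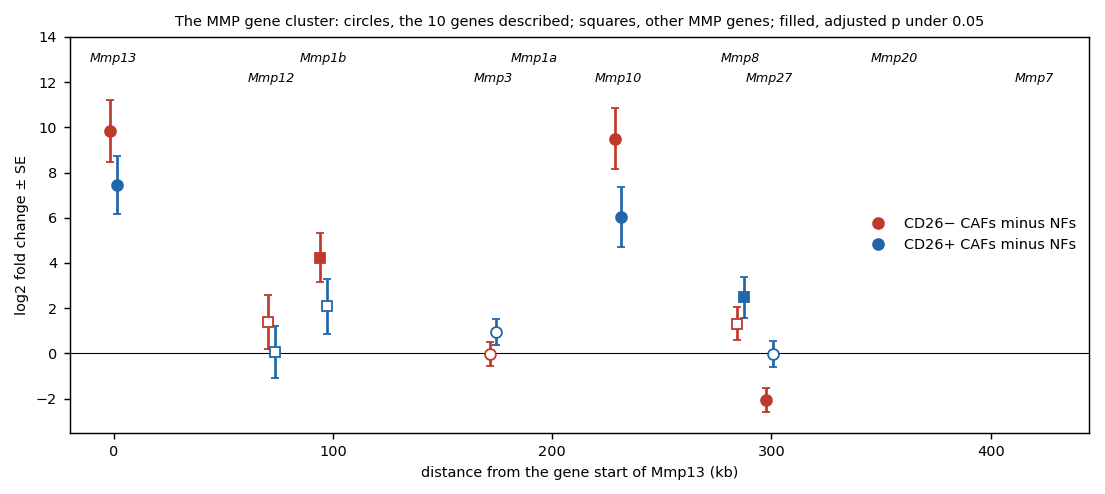
Log2 fold changes of the MMP genes of the chromosome 9 cluster with their SE, against distance in kb from the start of Mmp13, for CD26− and CD26+ CAFs against NFs, with circles for the 10 genes, squares for other MMP genes and filled symbols for an adjusted p under 0.05. Mmp13 at 0 kb and Mmp10 at 230 kb stand high in CAFs, Mmp3 at 173 kb lies near 0 in CD26− CAFs, and Mmp27 at 299 kb is the member below 0 there.

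Of 13 further MMP genes 8 could be tested, and 2 rose and 2 fell in CD26− CAFs against CD26− NFs. Besides Mmp1b, Mmp28, which encodes epilysin, was higher (1.33 ± 0.49, adjusted p = 0.0351), and the membrane-type genes Mmp16 (−2.22 ± 0.39) and Mmp15 (−1.88 ± 0.63) were lower. In CD26+ CAFs 1 was higher (Mmp8) and 4 were lower, Mmp15, Mmp28, Mmp16 and Mmp17. Against CD26− CAFs, 6 of the 8 were lower in CD26+ CAFs, from −1.59 for Mmp8 to −4.78 ± 0.42 for Mmp28. The CD26 difference of Mmp28 also differed between CAFs and NFs (−3.40 ± 0.73, adjusted p = 0.0119). Most of these genes were rare, with Mmp28 at 6.69 ± 2.79 CPM in CD26− CAFs (SD, n = 10).

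Among the 5 inhibitors, 1 rose and 2 fell in CAFs of both classes. Timp1 rose by 2.03 ± 0.52 in CD26− (adjusted p = 0.0039) and by 2.41 ± 0.54 in CD26+ CAFs (adjusted p = 0.00151). Reck had log2 fold changes of −2.17 ± 0.20 (adjusted p = 4.09e-08) and −1.18 ± 0.21 (adjusted p = 0.000191), and Timp4 was also lower in both (adjusted p = 0.000166 and 0.00119). Timp4 was close to absent in every group, with means of 0.621 CPM in CD26− and 0.289 CPM in CD26+ NFs. Its means in CAFs were 0.0293 and 0.00824 CPM. Timp2, which both inhibits Mmp2 and helps Mmp14 to activate it, was the most abundant inhibitor in every group. It was not called between CAFs and NFs, and it was higher in CD26+ than in CD26− cells in CAFs (1.10 ± 0.18, adjusted p = 3.8e-05) and in NFs (1.17 ± 0.32, adjusted p = 0.0395). Reck was higher in CD26+ than in CD26− CAFs as well (1.00 ± 0.15, adjusted p = 1.91e-05).

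Of 7 genes for MMP activation and docking, 3 were higher in CD26− CAFs than in NFs and 0 lower. Furin, the convertase that cleaves pro-Mmp11 and pro-Mmp14, rose by 0.85 ± 0.20, Plaur, the urokinase receptor, by 1.01 ± 0.40, and Bsg, an inducer of MMPs also called EMMPRIN, by 0.70 ± 0.20. In CD26+ CAFs Pcsk5 (1.24 ± 0.30), Plaur (1.07 ± 0.41) and Bsg (1.05 ± 0.20) were higher. Pcsk6, another proprotein convertase, set the CD26 classes apart in CAFs (3.79 ± 0.28, adjusted p = 9.88e-10) and in NFs (4.25 ± 0.52, adjusted p = 1.95e-05), and the plasminogen activator genes Plat and Plau were higher in CD26+ CAFs by 0.68 ± 0.15 and 0.77 ± 0.25. Furin was lower in CD26+ than in CD26− CAFs (−0.34 ± 0.13, adjusted p = 0.0438).

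Of 7 genes for AP-1 subunits, among which Fosb was the most abundant, 0 were called higher in CAFs of either class, 2 lower in CD26− and 1 lower in CD26+ CAFs. Fosl2 was lower in both (−1.06 ± 0.20 in each), and Junb was lower in CD26− CAFs (−0.96 ± 0.20). Fosl1 was higher in CD26+ than in CD26− CAFs (1.27 ± 0.38, adjusted p = 0.0113). Of 8 immediate-early and heat-shock genes, which also respond to tissue dissociation, 1 was higher and 3 lower in CD26− CAFs. In CD26− CAFs, Egr1 (−1.32 ± 0.32), Ier2 (−1.10 ± 0.33) and Nr4a1 (−0.83 ± 0.28) were lower and Ier3 (1.01 ± 0.24) higher. In CD26+ CAFs, Ier3 was higher (2.49 ± 0.27) and Ier2 lower (−1.06 ± 0.34). Between the CAF classes, Ier3 (1.16 ± 0.16) and Atf3 (0.68 ± 0.26) were higher and the heat-shock genes Hspa1a (−1.61 ± 0.36) and Hspa1b (−1.67 ± 0.41) lower in CD26+ CAFs, and the part of dissociation in the MMP differences was not tested. The CD26 difference of Ier3 also differed between CAFs and NFs (1.49 ± 0.32, adjusted p = 0.0143).

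The genes whose log2 CPM followed each MMP most closely over the 25 sums were found by Pearson's r. The sums share mice and groups, so these values are descriptions. Mmp13 and Mmp10 followed each other (r = 0.958), and outside the MMPs both were closest to Uck2, a uridine-cytidine kinase gene (r = 0.972 and 0.956). Mmp9 was closest to 5330416C01Rik (r = 0.970), Mmp14 to Rgs12 (r = 0.937), Mmp27 to Slc4a4 (r = 0.932), Mmp23 to Yipf3 (r = 0.954) and Mmp3 to Igf1 (r = 0.898). Mmp2, Mmp19 and Mmp11 had weaker partners, namely Ssc5d (r = 0.866), Lrrc8e (r = 0.819) and Amdhd2 (r = 0.811).

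Reads of some MMP genes could be counted for a neighbor. Of windows of 54 bases, 7.49% of Mmp3 and 7.67% of Mmp10 were shared with another gene, mostly with each other. Mmp19 shared 24.4% with the overlapping Gm47093 and Tmem198b, and its values are uncertain to that extent. Mmp2, Mmp9, Mmp13, Mmp23 and Mmp27 shared no window.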

How the data were processed

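The authors deposited whole-number read counts per gene, not normalized, for 44 stranded paired-end mRNA libraries. The submitters' processing notes name HISAT2 2.2.1 and GRCm38. The counting tool, its strand setting and the annotation are not given in the sources used here. One line of 55487 named no gene and held 0 counts. No library was left out, and among 63 pairs of libraries of a group none agreed within sampling noise.

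Counts were summed per mouse and CD26 class (25 sums) and tested in R 4.3.3 with edgeR 4.0.16 (filterByExpr, TMM, glmQLFit, glmQLFTest, all groups in one fit). En1 comparisons used single libraries. Alternatives used DESeq2 1.42.0 and limma 3.58.1. Models were tested on simulated data. The libraries of a mouse come from one animal, so mouse numbers pair sums, and deviations of both CD26 classes of a mouse correlated with r of 0.237 to 0.668 (median 0.444, 12 pairs).

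The 10 genes, the other gene lists and the tests were chosen with earlier results of these data known. All 10 genes are named, as are genes of the pathway lists that passed a test described here or were the most abundant of their list, Dpp4, and for each MMP the gene with the highest correlation of log2 CPM (prior count 2). The rule also took in called genes of the cell type marker lists, which are given here as counts and sums, with few names. Mmp1a, Mmp7 and Mmp20 are named for their position in the cluster. Promoter sequences are from RefSeq, and 7 of the 10 genes had one. The labels name no batch.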

Additional observations from a re-analysis of the deposited data

Results flagged for a closer look

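In 4 of 40 groups of 4 or 5 mice, 1 mouse stood apart from the others of its group by Dixon's test at the 95% level, which chance flags in about 1 of 20 groups. Mmp11 was at 237.4 CPM in the CD26− CAFs of WB1P mouse 4, against a group median of 59.63 CPM. Mmp14 was at 1120 CPM in the CD26+ CAFs of WB1P-Myc mouse 10 (median 884.8 CPM). Mmp27 was at 9.204 CPM in the CD26− CAFs of WB1P mouse 5 (median 2.818 CPM) and at 51.35 CPM in the CD26+ CAFs of WB1P-Myc mouse 12 (median 15.17 CPM). Of 20 interaction tests of the 10 genes in the main edgeR fit of the summed counts, 0 passed. Of all genes, 2.11% passed for the CD26 difference of CAFs minus NFs and 0% for that of WB1P-Myc minus WB1P.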

How the results depend on the processing

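Of 17 called differences of single MMP genes, 11 kept their call and direction in every alternative run, and over 382 alternatives 17 lost the call and 0 turned. The 8 genes called between CD26+ and CD26− CAFs became 3 with the added fold limit, 5 in WB1P alone and 5 in WB1P-Myc alone. Runs with single libraries treated the libraries of a mouse and CD26 class as independent samples. They overstate the number of replicates, so calls gained there do not rest on more mice. Between CD26+ and CD26− NFs, 0 became 1 with single libraries (Mmp23), 1 with the fixed replicate block of mice (Mmp11, 0 with the random block) and 0 to 1 when each mouse was left out (Mmp23 without mouse 9). Between WB1P-Myc and WB1P CD26− CAFs, 0 became 3 with DESeq2 (Mmp9, Mmp10, Mmp14), 5 with single libraries and 0 to 1 with a mouse left out. For the CD26 difference between CAFs and NFs, 0 became 2 with single libraries (Mmp14, Mmp27), 2 with the fixed replicate block (Mmp13, Mmp27) and 1 with limma-voom's random block (Mmp27). With the random block, 3 of the 4 calls in CD26+ CAFs against NFs were left (Mmp10 was lost), and pairing by mouse changed no other call of the 10 genes. The shares of all genes called in these alternatives are not given here. Causes were not tested.

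Values near 0 that were not called changed sign. Against NFs in CD26− CAFs, WB1P-Myc alone gave 0.17 for Mmp3, −0.10 for Mmp11 and −0.07 for Mmp14, single libraries 0.09 for Mmp3 and −0.09 for Mmp11, and WB1P alone 0.09 for Mmp19. In CD26+ CAFs, Mmp11 was 0.08 in WB1P-Myc alone and 0.09 with the random block, and Mmp27 was 0.04 in WB1P alone and 0.07 with single libraries. Mmp19 between CD26+ and CD26− CAFs was 0.11 in WB1P-Myc alone. With a mouse left out, CD26− values ran from −0.32 to 0.12 for Mmp3 and −0.36 to 0.60 for Mmp11, and CD26+ values from −0.52 to 0.49 for Mmp11, −0.18 to 0.74 for Mmp19 and −0.36 to 0.11 for Mmp27. Depth limits Mmp10 in NFs, with 12 and 8 counts in the 2 CD26 classes.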
